A study of Mus musculus with 12 samples.

Results

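The genes described here are 10 that encode proteins of the contractile apparatus of muscle, out of 24537 genes in a single table of expression values. They are the actins Acta2, Actg2, Acta1 and Actc1, the myosin heavy chain Myh11, the regulatory myosin light chain Myl9, transgelin (Tagln), calponin 1 (Cnn1) and the tropomyosins Tpm1 and Tpm2. They were taken by symbol and chosen by their FPKM level, since several of them were high in in vivo iSEPs, epithelial cells made from mesenchyme inside a living mouse. Values in in vivo iSEPs are therefore given as a description, with no test. The name "smooth muscle contractile genes" holds only in part. Acta1 and Actc1 are the actins of skeletal and heart muscle, and Tpm1 and Tpm2 serve many cell types. Of the 10 genes, 7 had their highest group mean in adipose stromal cells, 2 (Acta2 and Tpm1) in the cells converted in vivo and 1 (Acta1) in keratinocytes.

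RNA was sequenced from 12 primary cultures, 3 in each of 4 groups, and the labels give the same 3 mice for every group. All mice were of the strain Pdgfra-creERxLSL-tdTomato, in which a tamoxifen-inducible Cre recombinase driven by Pdgfra switches on a red reporter. Adipose-derived stromal cells (ADSCs) were Pdgfra (+) cells of subcutaneous fat grown in DMEM with 10% FBS. The labels call in vitro iSEPs epithelial cells that were converted from such ADSCs in culture, with subcutaneous fat as their source, and iSEP stands for induced stratified epithelial progenitor. In vivo iSEPs were cultured from epithelial tissue into which mesenchyme had been converted in the animal, and keratinocytes were cultured from back skin. These last 3 groups grew in a keratinocyte medium without serum, so cell type and medium cannot be told apart in any comparison against ADSCs. The agents of conversion and the ages of the mice are not given in the sources used here.

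Smooth muscle contracts when thick filaments of Myh11 pull on thin filaments of alpha and gamma smooth muscle actin (Acta2 and Actg2), after myosin light chain kinase has phosphorylated Myl9. Calponin, transgelin and tropomyosin bind the actin filament and set how it is used. Many of these genes are switched on together by serum response factor (SRF), which binds a short element named the CArG box with cofactors of the myocardin family, and fibroblasts that turn into myofibroblasts during wound repair and in serum culture also use them.

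Because the CArG box is the sequence feature these genes are best known to share, it was searched on both strands in the 250 bases before the start site. RefSeq promoters (build GRCm38.p6) were matched by symbol for 7 of the 10 genes, with start sites identical to those of the expression table in mm10. Tagln, Actg2 and Myh11 were not matched. An exact CArG box stood before 3 of the 7 start sites (Acta1, Actc1 and Myl9), against 1.47% of 32851 promoters of the same length. A box that was exact or had 1 other base in its A/T core stood before 4 of the 7, Acta2 being the fourth, against 8.59% of all promoters. The 4 upstream sequences are printed 5′ to 3′ on the strand of the gene, with exact boxes and boxes with 1 other base in capitals.
Acta2, chr19:34255374-34255623, minus strand: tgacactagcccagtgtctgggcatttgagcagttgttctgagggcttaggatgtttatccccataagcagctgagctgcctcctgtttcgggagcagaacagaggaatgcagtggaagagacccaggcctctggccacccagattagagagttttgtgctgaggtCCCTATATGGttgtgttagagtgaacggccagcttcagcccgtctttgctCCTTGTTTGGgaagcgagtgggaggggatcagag
Acta1, chr8:123894776-123895025, minus strand: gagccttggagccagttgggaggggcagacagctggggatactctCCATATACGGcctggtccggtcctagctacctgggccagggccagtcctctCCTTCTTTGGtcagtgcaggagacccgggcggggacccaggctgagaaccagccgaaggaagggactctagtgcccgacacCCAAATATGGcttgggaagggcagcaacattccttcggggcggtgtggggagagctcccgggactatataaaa
Actc1, chr2:114052876-114053125, minus strand: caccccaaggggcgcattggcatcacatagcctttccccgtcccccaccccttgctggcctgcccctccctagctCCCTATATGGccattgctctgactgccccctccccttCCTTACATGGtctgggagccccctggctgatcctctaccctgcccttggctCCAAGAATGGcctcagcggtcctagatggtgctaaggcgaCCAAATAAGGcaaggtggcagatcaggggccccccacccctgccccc
Myl9, chr2:156775214-156775463, plus strand: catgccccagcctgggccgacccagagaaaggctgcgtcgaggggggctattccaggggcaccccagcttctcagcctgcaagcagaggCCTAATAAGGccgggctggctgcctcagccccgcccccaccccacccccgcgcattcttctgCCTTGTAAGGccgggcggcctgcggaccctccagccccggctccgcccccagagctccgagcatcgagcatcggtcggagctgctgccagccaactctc

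The exact boxes were CCAAATATGG in Acta1, at bases 73 to 64 before the start, CCAAATAAGG in Actc1, at bases 47 to 38, and CCTAATAAGG in Myl9, at bases 161 to 152. Acta2 held 2 boxes with another base in the core, CCCTATATGG and CCTTGTTTGG, and the first of these letter runs also stood in the Actc1 promoter. No box of either kind was found in the windows of Cnn1, Tpm1 and Tpm2, which says only that these letters are not in the searched bases. A match is a run of letters and was not tested as a binding site.

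**Figure D1:**
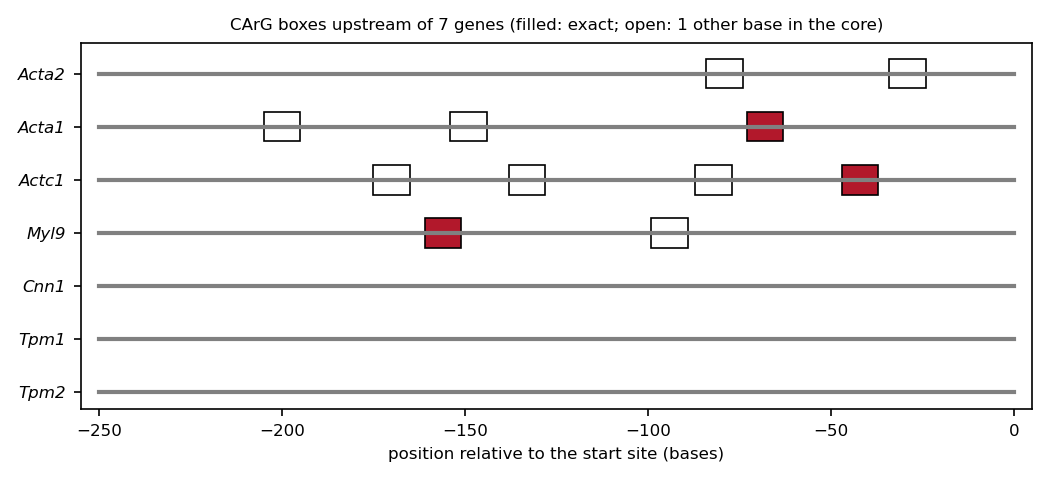
Position of CArG boxes in the 250 bases before the start site of the 7 genes with a RefSeq promoter; the horizontal axis is the distance from the start site in bases, filled boxes are exact and open boxes have 1 other base in the core. Acta1, Actc1 and Myl9 each hold 1 exact box, Acta2 holds 2 open boxes, and the windows of Cnn1, Tpm1 and Tpm2 hold none.

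Each library held 21010000 to 27770000 reads in the genes of the table, with 10845 to 11349 genes at 1 FPKM or more. FPKM counts fragments per length of exon and per depth of the library, so levels can be compared between genes. Such comparisons are less sure between close relatives such as the actins, where reads of one may be counted for another. Summed FPKM of 8 fibroblast markers lay at 7079 to 10081 in ADSCs, 66.3 to 185 in in vitro iSEPs, 25 to 33 in keratinocytes and 3.68, 6.28 and 40.1 in in vivo iSEPs of mice 1, 2 and 3. The sums of 5 epithelial markers were at most 11.8 FPKM in ADSCs and at least 9389 FPKM in every other library, so the marker levels went with the labels. The in vivo iSEP library of mouse 3 stood apart from the other two of its group: Krt5 was at 3410 FPKM there against 9804 and 9252, and the simple epithelial keratins Krt8 and Krt18 were at 103 and 95.5 FPKM against at most 0.166 and 2.79. Results that rest on that library are given with and without it. In the following, 3 values of a group are in the order of mice 1, 2 and 3, a mean ± SD is over n = 3 libraries in FPKM, and a log2 difference is a difference between group means of log2(FPKM + 1), which understates the change of low genes. Genes were tested with limma and called at an adjusted p below 0.05. These libraries come from bulk cultures, in which fewer cells of a type and less RNA per cell cannot be told apart.

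Most of the contractile genes were highest in ADSCs, low in in vitro iSEPs and keratinocytes, and at intermediate to high levels in in vivo iSEPs. In in vitro iSEPs, 9 of the 10 fell relative to ADSCs and none rose, while 53.8% of the 12364 genes tested were called, 21.7% lower and 32.1% higher. Tpm1 was the exception, with a log2 difference of -0.42 and an adjusted p of 0.293 by limma. In keratinocytes, 7 of the 10 were lower than in ADSCs, where 53.5% of all genes were called, 20.7% lower and 32.8% higher, and Acta1, Tpm1 and Tpm2 were not called. The median log2 difference of the 10 genes was -3.41 for in vitro iSEPs and -2.58 for keratinocytes, beside 0.15 and 0.18 over all genes tested. Both comparisons use the same ADSC libraries. All 10 genes passed the filter on low values, which asked for 1 FPKM in 3 libraries, but Actc1 and Myh11 passed it through ADSC and in vivo iSEP libraries alone, so the counts are descriptions of the list.

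Keratinocytes and in vitro iSEPs, which share the medium, differed less from each other. Relative to keratinocytes, in vitro iSEPs had lower Acta1, Myl9 and Tpm2 and higher Actg2, that is 3 genes lower and 1 higher, where 6.12% and 5.22% of all genes were called. The median over the 10 genes was -0.18, beside -0.02 over all genes. Of these calls, Myl9 held under every alternative tried. With no filter on low values 1 of the 4 calls was left, and with 1 library left out 1 to 3 were left.

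**Figure D2:**
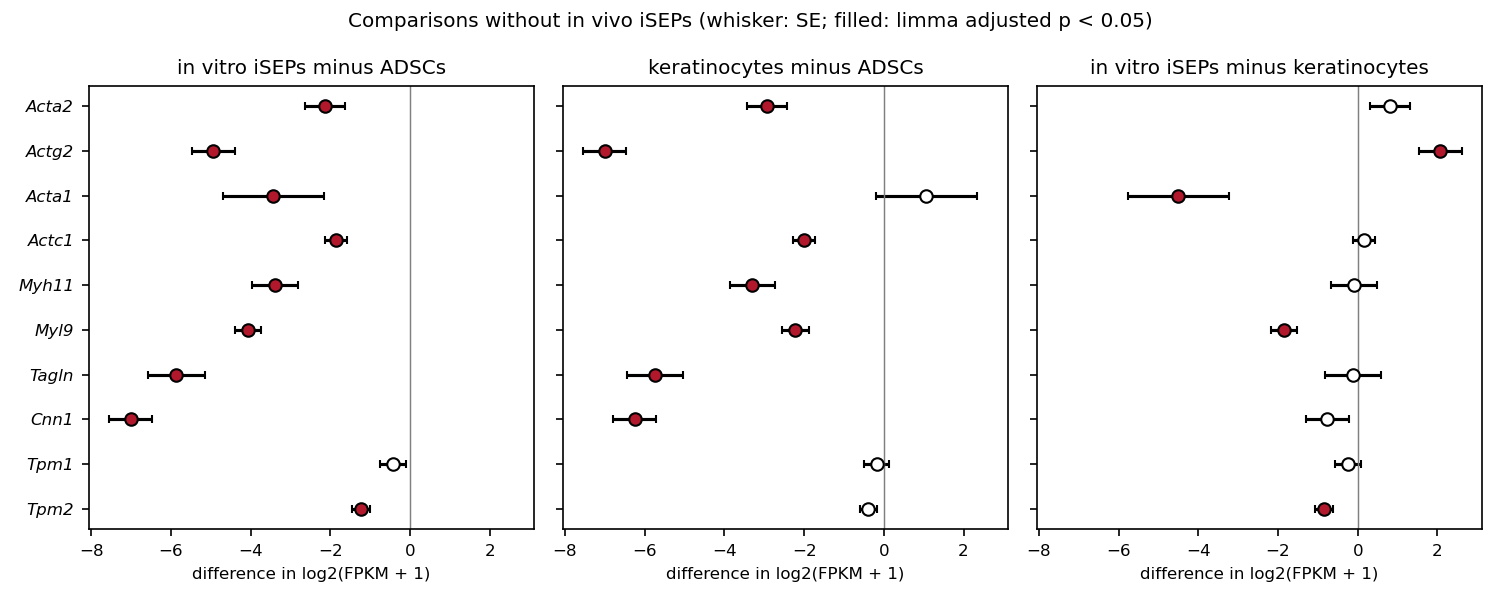
Difference in log2(FPKM + 1) for the 10 contractile genes in the 3 comparisons that do not involve in vivo iSEPs; points are differences of group means, whiskers are standard errors and filled points have a limma adjusted p below 0.05. The left and middle panels have 9 and 7 filled points below 0, and the right panel has 3 below and 1 above it.

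In vivo iSEPs were compared with the other groups by their values alone. All 10 genes had a higher mean on the log2 scale in in vivo than in in vitro iSEPs, and for 7 of them (Acta2, Actg2, Actc1, Tagln, Cnn1, Myl9 and Tpm2) the lowest in vivo library was above the highest in vitro one, where this held for 6.35% of all genes and the reverse for 8.64%. Against keratinocytes the libraries lay apart in this way for 5 genes (Acta2, Actg2, Actc1, Tagln and Cnn1), beside 11.6% of all genes, and for Acta1 all in vivo libraries were below all keratinocyte ones, beside 16.2%. Without the library of mouse 3 the counts of higher genes were 7 and 5, beside 12.2% and 21.2% of all genes, and without that of mouse 1 they were 9 and 9, beside 11.3% and 17.1%. Against ADSCs, Actc1, Tagln, Cnn1 and Myl9 were lower in every in vivo library, beside 22.2% of all genes, and no gene was higher in every one, beside 32%. Without mouse 3, 7 genes were lower than in every ADSC library, beside 26.2% of all genes, with Actg2, Acta1 and Myh11 added. Since the genes were chosen for their level in in vivo iSEPs, nothing is read from these counts.

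**Figure D3:**
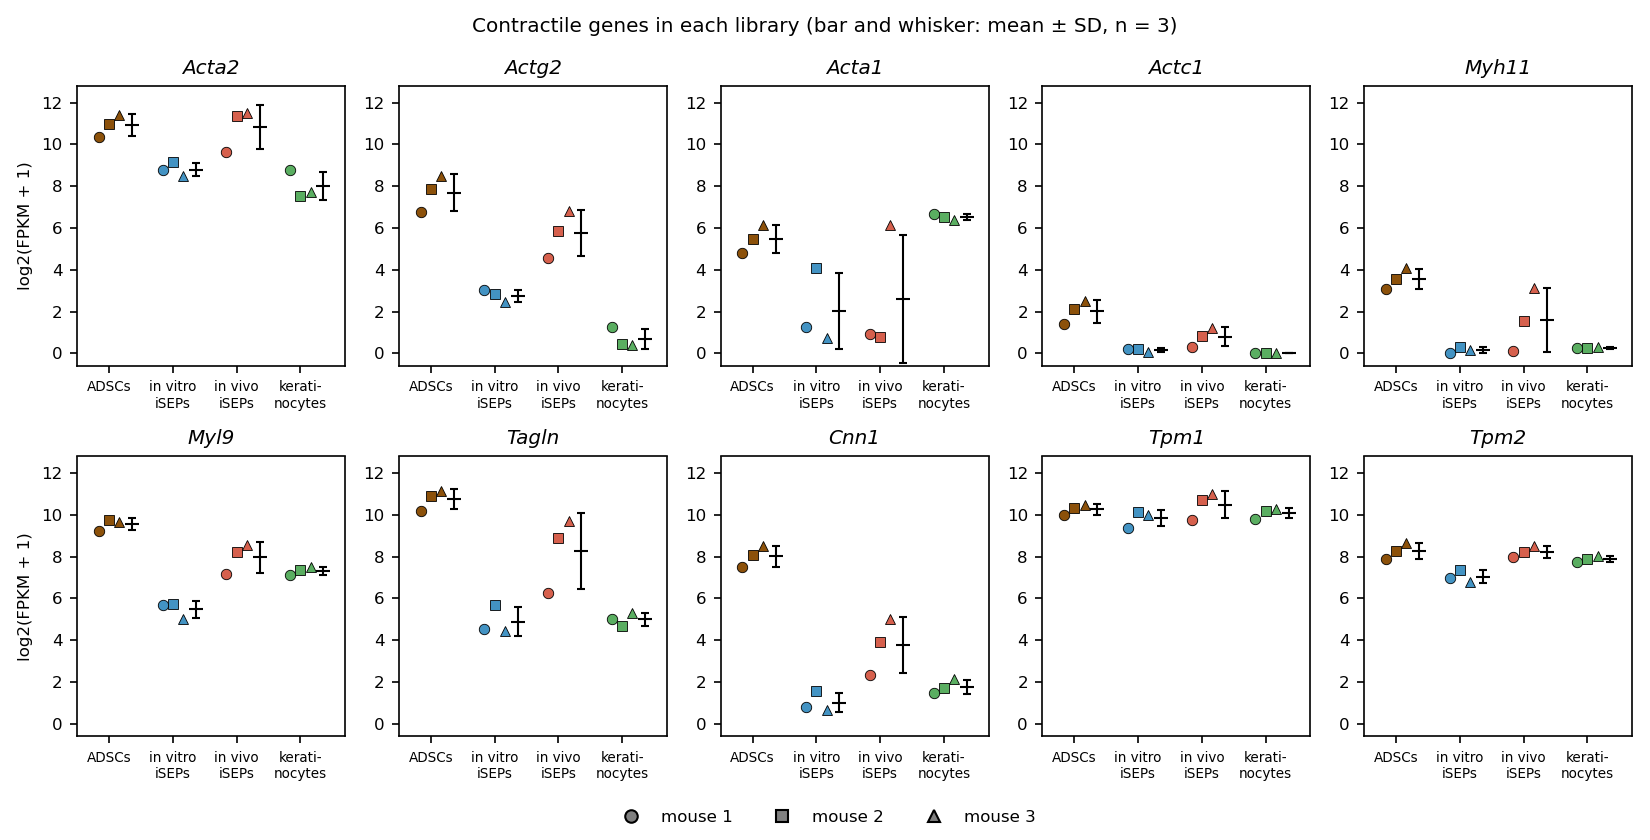
Level of the 10 contractile genes in each of the 12 libraries, as log2(FPKM + 1) on a common axis; symbols mark the mouse, and the bar and whisker give the mean ± SD of the log2 values of each group. Among the in vivo iSEP libraries mouse 3 is highest in all 10 panels and mouse 1 lowest in 9 of them, Acta1 being the exception.

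Acta2 (chr19:34240336-34255373), alpha smooth muscle actin and the usual marker of myofibroblasts, was among the most abundant of the 10 genes in every group. It was at 1328, 2051 and 2757 FPKM in ADSCs and at 435, 564 and 358 FPKM in in vitro iSEPs. In keratinocytes it was at 438, 183 and 207 FPKM. In vivo iSEPs had 798, 2660 and 2943 FPKM, so that mouse 2 lay within the ADSC range, mouse 3 above it and mouse 1 between ADSCs and the other groups. Relative to ADSCs, the log2 difference was -2.14 (SE 0.5, limma adjusted p = 0.00407) in in vitro iSEPs and -2.94 (SE 0.5, limma adjusted p = 0.000515) in keratinocytes. In vitro iSEPs and keratinocytes, with means of 452 ± 104 and 276 ± 141, overlapped and were not called apart (limma adjusted p = 0.332). The in vivo mean of 2134 ± 1166 FPKM was 4.72 times that of in vitro iSEPs and 7.73 times that of keratinocytes, and without mouse 3 these ratios were 3.82 and 6.26.

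Actg2 (chr6:83512909-83536251), gamma smooth muscle actin of gut and bladder wall, was spread over a wide range. It was at 106, 231 and 353 FPKM in ADSCs, and at 23.0, 57.3 and 112 FPKM in in vivo iSEPs. In vitro iSEPs had 7.05, 6.05 and 4.48 FPKM. Keratinocytes had 1.37, 0.345 and 0.306 FPKM, the lowest of the 4 groups, and in vitro iSEPs lay above them without overlap. Actg2 fell by 4.93 on the log2 scale in in vitro iSEPs relative to ADSCs (SE 0.54, limma adjusted p = 1.83e-05) and was lower in keratinocytes, with a log2 difference of -7 (SE 0.54, limma adjusted p = 1.09e-06). The ADSC mean was 39.3 times that of in vitro iSEPs and 341 times that of keratinocytes. Between in vitro iSEPs and keratinocytes the log2 difference was 2.07 (SE 0.54, limma adjusted p = 0.0331), and this call was lost under 6 of 13 alternatives, with adjusted p up to 0.114. The in vivo mean of 64.1 ± 44.8 FPKM was 10.9 times that of in vitro iSEPs and 94.9 times that of keratinocytes, or 6.85 and 59.5 times without mouse 3.

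Acta1 (chr8:123891758-123894775), skeletal muscle actin, did not follow the other actins. Its level was highest in keratinocytes, at 101, 90.6 and 83.6 FPKM, and next highest in ADSCs, at 26.7, 43.0 and 69.5 FPKM. In vitro iSEPs had 1.4, 16.1 and 0.657 FPKM. In vivo iSEPs had 0.92 and 0.696 FPKM in mice 1 and 2 but 70.0 FPKM in mouse 3, a ratio of 101 between the highest and the lowest library. The in vivo mean of 23.9 ± 40 was 3.95 times the in vitro mean, and without mouse 3 the direction turned, with an in vitro mean 7.48 times the in vivo one. Krt8 was also highest in mouse 2 among in vitro and in mouse 3 among in vivo iSEPs, at 0.934, 7.17 and 0.562 FPKM in vitro and 0.159, 0.166 and 103 FPKM in vivo. It was at 33.6, 21.9 and 27.9 FPKM in keratinocytes but at most 0.16 FPKM in ADSCs, and its part in the Acta1 values was not tested. Acta1 was lower in in vitro iSEPs than in ADSCs (log2 difference -3.43, SE 1.27, limma adjusted p = 0.0397) and lower than in keratinocytes (log2 difference -4.5, SE 1.27, limma adjusted p = 0.0435). The first call was lost under 6 of 13 alternatives, among them leaving out any of the ADSC libraries (limma adjusted p = 0.0599, 0.0865 and 0.112 without mice 1, 2 and 3) and in vitro mouse 1 or 3 (0.108 and 0.134). The second was lost under 8 of 13 alternatives, among them the fit with the mouse as a replicate block (adjusted p = 0.0581).

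Actc1 (chr2:114047284-114052875), heart muscle actin, was scarce in all groups. It was at 1.66, 3.4 and 4.62 FPKM in ADSCs, from about 77, 145 and 187 reads, and at 0.246, 0.797 and 1.34 FPKM in in vivo iSEPs, from about 10, 35 and 62 reads. In vitro iSEPs had 0.161, 0.161 and 0.028 FPKM, which rest on 6, 7 and 1 reads, and keratinocytes were listed at 0 in all 3 libraries. The log2 differences from ADSCs were -1.86 in in vitro iSEPs (SE 0.27, limma adjusted p = 0.000163) and -2.01 in keratinocytes (SE 0.27, limma adjusted p = 8.74e-05). No fold is given against libraries at 0. The actin genes are close in sequence, and reads of one may be counted for another: Actg1, the second cytoplasmic actin, was listed at only 2.38 to 4.37 FPKM in all libraries while Actb was at 588 to 1645 FPKM. How reads that match several actins were counted was not tested, so the level of a low actin beside an abundant one is uncertain.

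Myh11 (chr16:14194527-14291408), the myosin heavy chain used to define mature smooth muscle, stayed low beside its actin partners. ADSCs had 7.44, 10.7 and 15.7 FPKM. In vitro iSEPs had 0.024, 0.235 and 0.129 FPKM and keratinocytes 0.187, 0.174 and 0.233 FPKM. The in vivo iSEPs ran from 0.071 FPKM in mouse 1 through 1.9 FPKM in mouse 2 to 7.78 FPKM in mouse 3. These 3 libraries held about 13, 377 and 1625 reads of the gene, so the spread is far larger than counting error, and mouse 1 was no higher than the keratinocytes. The log2 difference from ADSCs was -3.39 in in vitro iSEPs (SE 0.57, limma adjusted p = 0.000445) and -3.3 in keratinocytes (SE 0.57, limma adjusted p = 0.000535), from ADSC means 87.4 and 57.1 times higher. The in vivo mean of 3.25 ± 4.03 FPKM was 25.1 times that of in vitro iSEPs and 16.4 times that of keratinocytes with mouse 3, and 7.62 and 4.98 times without it.

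Myl9 (chr2:156775464-156781657), the regulatory light chain whose phosphorylation starts contraction, was the gene that set in vitro iSEPs and keratinocytes apart most firmly. ADSCs had 596, 861 and 819 FPKM, and in vitro iSEPs had 49.8, 52.8 and 31.4 FPKM. Keratinocytes had 139, 165 and 179 FPKM. In vivo iSEPs had 141, 298 and 376 FPKM, with mouse 1 inside the keratinocyte range and mice 2 and 3 above it. The 3 differences were all called. In vitro iSEPs were lower than ADSCs (log2 difference -4.07, SE 0.33, limma adjusted p = 1.55e-06). Keratinocytes were lower than ADSCs (log2 difference -2.22, SE 0.33, limma adjusted p = 0.000171). In vitro iSEPs were lower than keratinocytes (log2 difference -1.85, SE 0.33, limma adjusted p = 0.00596), with means of 44.7 ± 11.6 and 161 ± 20.2 FPKM. The in vivo mean of 272 ± 119 was 6.08 times the in vitro and 1.69 times the keratinocyte mean, and without mouse 3 it was 4.91 and 1.36 times these.

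Tagln (chr9:45929628-45936058), or SM22 alpha, an early marker of smooth muscle that binds actin, was at 1178, 1917 and 2235 FPKM in ADSCs. In vitro iSEPs had 22.3, 50.3 and 20.8 FPKM and keratinocytes 31.2, 25.0 and 38.7 FPKM, which overlapped. The in vivo libraries had 74.7, 478 and 848 FPKM, all above both of these groups and all below ADSCs. The log2 difference from ADSCs was -5.86 in in vitro iSEPs (SE 0.71, limma adjusted p = 4.1e-05) and -5.74 in keratinocytes (SE 0.71, limma adjusted p = 4.79e-05). The ADSC mean was 57.1 and 56.2 times that of these groups. The in vivo mean of 467 ± 387 was 15 times that of in vitro iSEPs and 14.8 times that of keratinocytes, against 8.87 and 8.74 times without mouse 3.

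Cnn1 (chr9:22099253-22109221), a calponin that restrains actin-activated myosin and marks differentiated smooth muscle, had the largest fall of the 10 genes in in vitro iSEPs. It was at 181, 268 and 361 FPKM in ADSCs and at 0.768, 1.94 and 0.591 FPKM in in vitro iSEPs. Keratinocytes had 1.8, 2.25 and 3.39 FPKM, overlapping with in vitro iSEPs. In vivo iSEPs had 4.11, 13.9 and 31.4 FPKM, which lay above both groups but far below ADSCs. The log2 difference from ADSCs was -7.01 in in vitro iSEPs (SE 0.54, limma adjusted p = 1.19e-06) and -6.25 in keratinocytes (SE 0.54, limma adjusted p = 2.9e-06), and the ADSC mean was 245 and 109 times higher. The ADSC mean was 16.4 times the in vivo mean of 16.5 ± 13.8 FPKM, and 30 times that mean without mouse 3. With all 3 mice the in vivo mean was 15 times the in vitro one, or 8.17 times without mouse 3.

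The tropomyosins, which lie along the actin filament and are made by muscle and other cells alike, had the smallest differences of the 10 genes from ADSCs in in vitro iSEPs and keratinocytes. Tpm1 (chr9:67022593-67049213) was at 1008, 1298 and 1430 FPKM in ADSCs and at 673, 1120 and 1026 FPKM in in vitro iSEPs. Keratinocytes had 908, 1162 and 1232 FPKM and in vivo iSEPs 860, 1710 and 2033 FPKM, and the 4 groups overlapped. None of the tested differences of Tpm1 was called. Against ADSCs the keratinocyte difference was -0.18 (SE 0.32, limma adjusted p = 0.673), and its sign turned with quantile normalization. Tpm2 (chr4:43513726-43523554) was at 237, 312 and 403 FPKM in ADSCs, at 126, 166 and 109 FPKM in in vitro iSEPs and at 212, 239 and 262 FPKM in keratinocytes. The in vivo values of 249, 299 and 364 FPKM lay within the ADSC range. Tpm2 fell in in vitro iSEPs relative to ADSCs by 1.23 on the log2 scale (SE 0.22, limma adjusted p = 0.000759), while the keratinocyte difference of -0.39 was not called (limma adjusted p = 0.163). In vitro iSEPs also had less Tpm2 than keratinocytes (log2 difference -0.84, SE 0.22, limma adjusted p = 0.0361), a call that 7 of 13 alternatives lost, with adjusted p up to 0.121. The table holds 1 entry per gene, so muscle and non-muscle isoforms of the tropomyosins cannot be told apart.

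The 3 in vivo iSEP libraries were ordered alike by most of the genes. Mouse 3 had the highest in vivo value for 10 of the 10 genes, and for 9 of them mouse 2 came next and mouse 1 last, an order that 18.9% of all genes showed. The exception was Acta1. The ratio of the highest to the lowest in vivo library was 1.46 for Tpm2, 2.36 for Tpm1, 2.66 for Myl9, 3.69 for Acta2 and 4.86 for Actg2. It was 5.45 for Actc1, 7.64 for Cnn1, 11.4 for Tagln and 110 for Myh11. In the ADSCs mouse 1 was lowest for 10 of the 10 genes, which held for 30.2% of all genes. The other groups had other orders. In in vitro iSEPs mouse 3 was lowest for all of the genes but Myh11 and Tpm1. In keratinocytes mouse 1 was highest for Acta2, Actg2 and Acta1 and lowest for Cnn1, Myl9, Tpm1 and Tpm2. The share of all genes with these orders was not computed for in vitro iSEPs and keratinocytes, so nothing is read from them.

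A comparison with relatives used outside muscle showed whether a gene's level went with the general level of its family. The ratio of Acta2 to Actb, the main cytoplasmic actin, was 1.39, 1.66 and 1.68 in ADSCs and 1.07, 2.65 and 2.42 in in vivo iSEPs. It was 0.721, 0.741 and 0.609 in in vitro iSEPs and 0.477, 0.195 and 0.212 in keratinocytes. Acta2 was thus listed above Actb in all 6 libraries of ADSCs and in vivo iSEPs and below it in the other 6. How far reads that match several actins enter this ratio was not tested. Among the light chains, Myl9 over Myl12a, a light chain of non-muscle myosin, was 3.13, 3.43 and 2.72 in ADSCs but at most 0.924 in the other 3 groups, where in vivo iSEPs had 0.579, 0.83 and 0.924. In vitro iSEPs had 0.208, 0.17 and 0.11, and keratinocytes had 0.458, 0.486 and 0.503, without overlap between any 2 of the 4 groups.

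For the heavy chain, Myh11 never came near Myh9, the non-muscle myosin of most cells. Their ratio was at most 0.0384 in ADSCs, 0.0011 in in vitro iSEPs and 0.000804 in keratinocytes, and in in vivo iSEPs it was 0.00035, 0.00537 and 0.0182. Tagln exceeded Tagln2, its relative in non-muscle cells, by 5.4 to 5.83 times in ADSCs. In in vivo iSEPs that ratio was 0.108, 0.59 and 1.7, so only mouse 3 had more Tagln than Tagln2, and it was at most 0.109 in in vitro iSEPs and keratinocytes. Cnn1 over Cnn2, the calponin of non-muscle cells, was 0.532 to 0.737 in ADSCs, 0.0175, 0.0395 and 0.0848 in in vivo iSEPs and at most 0.0119 in the other groups. For Tpm2 over Tpm4, a tropomyosin of non-muscle cells, the groups lay close, at 0.405 to 0.553 in ADSCs, 0.249 to 0.407 in in vitro iSEPs, 0.496 to 0.79 in in vivo iSEPs and 0.43 to 0.467 in keratinocytes. The genes therefore differed in how near in vivo iSEPs came to ADSCs on this measure: Acta2 over Actb and Tpm2 over Tpm4 overlapped, while the ratios of Tagln, Cnn1, Myl9 and Myh11 were below ADSCs in all 3 mice.

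**Figure D4:**
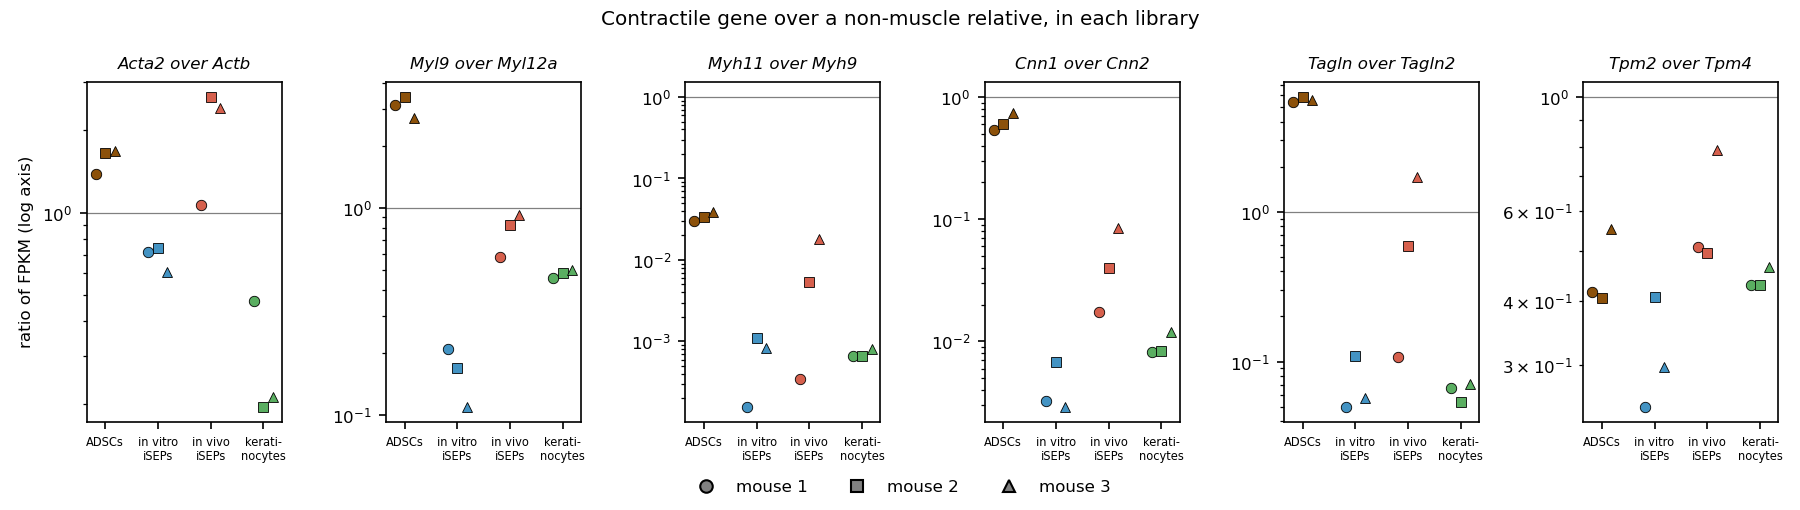
Ratio of FPKM of a contractile gene to a relative used outside muscle in each library, on log axes whose range differs between panels; symbols mark the mouse and the grey line marks a ratio of 1. In vivo iSEPs overlap with ADSCs for Acta2 over Actb and for Tpm2 over Tpm4 and lie below them in the other 4 panels.

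Transcription regulators of smooth muscle genes were a list of 15, of which 13 passed the filter. SRF itself was at 15.7, 18.8 and 21.5 FPKM in ADSCs, 22.2, 16.5 and 18.1 FPKM in in vitro iSEPs, 23.4, 29.4 and 25.0 FPKM in in vivo iSEPs and 14.0, 17.2 and 18.9 FPKM in keratinocytes. None of its tested differences was called (limma adjusted p = 0.925, 0.441 and 0.514 for in vitro iSEPs and keratinocytes against ADSCs and for in vitro iSEPs against keratinocytes). Myocardin (Myocd), its muscle-specific cofactor, was at 0.092, 0.234 and 0.491 FPKM in ADSCs and was listed at 0 in all in vivo iSEP and keratinocyte libraries. Its relatives Mkl1 and Mkl2, which carry the signal of actin assembly to SRF, were present throughout. Mkl1 was at 12.4 ± 2.71 FPKM in ADSCs, 16.2 ± 1.63 in in vitro iSEPs and 15.2 ± 0.92 in keratinocytes, and at 18.9, 22.4 and 25.5 FPKM in in vivo iSEPs. Mkl2 ranged over all libraries from 4.0 to 7.09 FPKM. With Myocd listed at 0 in both groups, Acta2 was at 798 to 2943 FPKM in in vivo iSEPs and at 183 to 438 FPKM in keratinocytes. Any part of Myocd in the Acta2 levels was not tested.

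Of the 13 regulators tested, 2 (Klf4 and Klf5) were higher and 4 (Gata6, Elk1, Csrp2 and Tead1) lower in in vitro iSEPs than in ADSCs, with a median log2 difference of -0.29 beside 0.15 over all genes. These 6 of 13 are near the 53.8% called among all genes. Without the filter on low values, the count called was 10 in place of 6. In keratinocytes 2 (Klf5 and Mkl2) were higher and 7 lower, beside 32.8% and 20.7% of all genes, with a median of -0.5 beside 0.18. Klf5, a zinc finger factor of both epithelia and remodelling smooth muscle, rose from 0.803 ± 0.224 FPKM in ADSCs to 68.8 ± 24.7 in in vitro iSEPs (log2 difference 5.22, SE 0.33, limma adjusted p = 2.43e-07) and was at 33.6 ± 2.34 in keratinocytes. Csrp2, a LIM protein of smooth muscle, went from 171 ± 45.6 FPKM in ADSCs to 4.26 ± 1.13 in in vitro iSEPs (log2 difference -5.02, SE 0.37, limma adjusted p = 7.83e-07) and 7.04 ± 2.16 in keratinocytes. It stayed low in in vivo iSEPs, at 5.22, 1.05 and 3.49 FPKM, unlike its relative Csrp1, which had 465, 765 and 734 FPKM there, the highest mean of the list. Between in vitro iSEPs and keratinocytes 1 of the 13 was called, where 11.3% of all genes were: Klf4, higher by 0.91 in in vitro iSEPs (SE 0.26, limma adjusted p = 0.0472), a call lost under 6 of 13 alternatives.

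Another 18 genes of smooth muscle differentiation were looked at as a second list, and 14 passed the filter. In in vitro iSEPs 11 of them were lower and 1 (Pgm5) higher than in ADSCs, beside 21.7% lower and 32.1% higher among all genes, with a median log2 difference of -2 beside 0.15. In keratinocytes 10 were lower and none higher, beside 20.7% and 32.8%, with a median of -1.67 beside 0.18. Mylk, Des and Aoc3 passed the filter through ADSC libraries alone, so that they had to be lower elsewhere, and the counts are descriptions. Leiomodin 1 (Lmod1), which nucleates actin in smooth muscle, was at 21.2, 28.8 and 38.8 FPKM in ADSCs and at most 1.6 FPKM in in vitro iSEPs and 0.307 FPKM in keratinocytes. The in vivo libraries had 0.751, 3.78 and 10.3 FPKM of it, in the same order of mice as the contractile genes. Its log2 difference from ADSCs was -4.11 in in vitro iSEPs (SE 0.53, limma adjusted p = 6.7e-05) and -4.57 in keratinocytes (SE 0.53, limma adjusted p = 2.96e-05). Myosin light chain kinase (Mylk) was different. It was at 26.4, 25.3 and 22.1 FPKM in ADSCs and at 0.298, 0.565 and 0.771 FPKM in in vivo iSEPs, close to the 0.15 to 0.593 FPKM of in vitro iSEPs. Its log2 difference from ADSCs in in vitro iSEPs was -4.29 (SE 0.16). In keratinocytes Mylk was at most 0.124 FPKM, with a log2 difference of -4.54 (SE 0.16). No p-value is given for Mylk, because the filter fixed the direction of both differences. Caldesmon (Cald1), which binds actin and tropomyosin, had the highest in vivo mean of the list, 592 ± 176 FPKM beside 604 ± 81.9 in ADSCs. Nexilin (Nexn), an actin-binding protein of muscle, was the 1 gene of the 14 called between in vitro iSEPs and keratinocytes, beside 11.3% of all genes, at 4.65 ± 1.15 and 11 ± 1.7 FPKM (log2 difference -1.1, SE 0.24, limma adjusted p = 0.0152). That call was lost without in vitro mouse 3 (adjusted p = 0.0598), keratinocyte mouse 2 (0.0665) or keratinocyte mouse 3 (0.0621).

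Non-muscle actomyosin, was a list of 20 genes that all passed the filter. In in vitro iSEPs 3 (Myl12b, Myh14 and Actn4) were higher and 9 lower than in ADSCs, beside 32.1% and 21.7% of all genes, with a median of -0.43 beside 0.15. In keratinocytes 6 were higher and 4 (Cnn2, Myh10, Zyx and Tln1) lower, beside 32.8% and 20.7%, with a median of -0.04 beside 0.18. The totals called, 12 and 10 of 20, are near the 53.8% and 53.5% of all genes. Myh10, a non-muscle myosin of mesenchymal cells, was at 42.6 ± 10.4 FPKM in ADSCs and 5.03 ± 1.84 in in vitro iSEPs (log2 difference -2.87, SE 0.33, limma adjusted p = 2.37e-05). Myh14, the non-muscle myosin found in epithelia, went from 0.0783 ± 0.0499 to 4.78 ± 1.7 FPKM (log2 difference 2.38, SE 0.44, limma adjusted p = 0.000834). In vivo iSEPs followed the epithelial side in both, with 1.9, 2.94 and 5.08 FPKM of Myh10 and 2.06, 2.26 and 10.9 FPKM of Myh14. Between in vitro iSEPs and keratinocytes limma called 0 of the 20, beside 11.3% of all genes, while 7 had an unadjusted p below the threshold, 4 were called in a fit of the 9 libraries without in vivo iSEPs, 3 with quantile normalization and 1 with the replicate block.

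Genes that set the phosphorylation of the myosin light chain were a list of 16, all above the filter, and 8 of them were lower and 3 (Ppp1cb, Ppp1r14b and Dapk3) higher in in vitro iSEPs than in ADSCs, beside 21.7% and 32.1% of all genes, with a median of -0.43 beside 0.15. In keratinocytes 8 were lower and these 3 higher, beside 20.7% and 32.8%, with a median of -0.39 beside 0.18. Mylk, which passed the filter through ADSC libraries alone, is on this list too. Rhoc, a small GTPase, fell by 2.29 on the log2 scale in in vitro iSEPs (SE 0.46, limma adjusted p = 0.00148) and was at 20.9, 69.2 and 91.5 FPKM in in vivo iSEPs against 342 ± 59.3 in ADSCs. Ppp1r14a (CPI-17), the smooth muscle inhibitor of myosin phosphatase, had another pattern: it was at 6.81, 4.6 and 5.39 FPKM in ADSCs, 10.2, 5.98 and 5.53 FPKM in in vitro iSEPs and 1.33, 0.527 and 0.316 FPKM in keratinocytes. Its in vivo values of 17.0, 82.5 and 40.3 FPKM were above every library of the other groups. In vitro iSEPs exceeded keratinocytes by 2.26 (SE 0.46, limma adjusted p = 0.0117), and this call was lost without keratinocyte mouse 2 (adjusted p = 0.0504) or mouse 3 (0.0514). Calm3, a calmodulin gene, was lower in in vitro iSEPs than in keratinocytes (log2 difference -0.45, SE 0.13, limma adjusted p = 0.0429), a call lost under 8 of 13 alternatives with adjusted p up to 0.128, among them the replicate block (adjusted p = 0.0707). Calm2, another calmodulin gene, had the highest in vivo mean of the list, 265 ± 23 FPKM. On this list 2 genes (Calm3 and Rhoa) were lower and 1 higher in in vitro iSEPs than in keratinocytes, beside 6.12% and 5.22% of all genes, and with any 1 library left out at most 1 was called.

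TGF beta is a known inducer of the contractile genes in fibroblasts, and 12 genes of its ligands, receptors and targets were tested. In in vitro iSEPs 2 (Tgfbr2 and Ltbp1) were higher and 8 lower than in ADSCs, beside 32.1% and 21.7% of all genes, with a median of -1.43 beside 0.15. In keratinocytes 1 (Tgfbi) was higher and 6 lower, beside 32.8% and 20.7%, with a median of -0.8 beside 0.18. The count of 10 called for in vitro iSEPs was 6 with no filter on low values, and also without ADSC mouse 2, ADSC mouse 3 or in vitro mouse 3. Ltbp2, a matrix protein related to latent TGF beta binding proteins, fell by 5.18 on the log2 scale in in vitro iSEPs (SE 0.39, limma adjusted p = 9.6e-07) and stayed at 0.157, 0.186 and 1.34 FPKM in in vivo iSEPs. Ctgf, a matricellular target, was at 48.0, 328 and 731 FPKM in in vivo iSEPs, the highest mean of the list. Of the receptors, Tgfbr1 was lower in in vitro iSEPs than in keratinocytes (log2 difference -1.27, SE 0.19, limma adjusted p = 0.00276) and Tgfbr2 higher (log2 difference 1.15, SE 0.27, limma adjusted p = 0.0202), the second call being lost under 5 of 13 alternatives with adjusted p up to 0.0747. With Smad3 the list gave 1 gene higher and 2 lower in that comparison, beside 5.22% and 6.12% of all genes, 5 called in the fit of 9 libraries, and 1 with no filter on low values or without in vitro mouse 1 or 3 or keratinocyte mouse 1 or 2.

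Genes with the most similar profile were sought outside the 10, for 3 of the genes, by the mean absolute difference of centred log2(FPKM + 1) values over the 12 libraries among 9517 genes. For Acta2, where the median candidate differed by 1.35, they were Dlc1 (0.4), Creld1 (0.47), St3gal3 (0.51), Rassf3 (0.52) and Eng (0.52). Dlc1, which encodes a GTPase activating protein, was at 8.89, 17.4 and 21.8 FPKM in in vivo iSEPs beside a mean of 23.2 FPKM in ADSCs. For Cnn1, with a median candidate at 2.55, they included Mir6950 (0.39), Loxl2 (0.63), Glipr2 (0.71) and Hs6st2 (0.74). The Mir6950 entry (chr14:69692248-69692320) lies inside Loxl2 (chr14:69609476-69695834) on the same strand, so both can hold the same reads. Loxl2, a lysyl oxidase that crosslinks collagen, was at 1.78, 16.6 and 29.5 FPKM in in vivo iSEPs and had a mean of 218 FPKM in ADSCs. For Myh11, with a median candidate at 1.49, they were Trpv2 (0.29), Lims2 (0.29), Lrrc15 (0.31), Tgfb1i1 (0.34) and Npr3 (0.34). Each of these 5 had its lowest in vivo value in mouse 1 and its highest in mouse 3, and Lims2, an adaptor of integrin adhesions, ran over 0.595, 4.45 and 8.03 FPKM. The genes were picked by their profile over all 12 libraries, the in vivo ones included. Their order of mice is therefore largely set by the choice and is no separate result. Among the 10 genes themselves, Actc1 was nearest to Acta2 (0.59) and to Myh11 (0.66), and Tagln to Cnn1 (0.61). Actc1 was at most at 4.62 FPKM, where the log2(FPKM + 1) scale understates changes, so its nearness depends on that scale. In FPKM, the ADSC mean was 27.7 times the in vitro mean for Actc1 and 4.52 times for Acta2. These distances describe 12 libraries that share mice and media.

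Markers of other cells that hold contractile genes were summed beside them. The 10 contractile genes together came to 4670, 6996 and 8448 FPKM in ADSCs, 1315, 1977 and 1551 FPKM in in vitro iSEPs, 2151, 5519 and 6787 FPKM in in vivo iSEPs and 1832, 1867 and 2006 FPKM in keratinocytes. Most of each in vivo sum was Acta2 and Tpm1, at 2660 and 1710 FPKM in mouse 2. The sums thus say little of Actc1, Tagln, Cnn1 and Myl9, which were below every ADSC library. The fibroblast marker sums given above were lower in in vivo iSEPs of mice 1 and 2 than in every other library, while mouse 3, at 40.1 FPKM, was above the keratinocytes. Their part in the contractile values was not tested. In vivo iSEPs of mice 1, 2 and 3 held 2151, 5519 and 6787 FPKM of contractile genes beside 3.68, 6.28 and 40.1 FPKM of fibroblast markers, so both sums rose in the same order of mice. The 10 markers of pericytes and vascular mural cells summed to 182 to 273 FPKM in in vivo iSEPs and 143 to 198 FPKM in ADSCs. Their sums were 99.8 to 136 FPKM in in vitro iSEPs and 94.4 to 126 FPKM in keratinocytes. Mcam made up 140 to 257 FPKM in vivo. It was higher in in vitro iSEPs and keratinocytes than in ADSCs (log2 differences 2.01 and 2.16, limma adjusted p = 0.000115 and 6.63e-05). The pericyte marker Rgs5 was at most 0.046 FPKM and Pdgfrb at most 0.728 FPKM in in vivo iSEPs. In ADSCs Pdgfrb was at 102 to 126 FPKM. Of the other pericyte markers, Notch3, a receptor of mural cells, was at 10.7, 13.2 and 13.9 FPKM in in vivo iSEPs, 2.35 to 4.48 FPKM in ADSCs, 13.4 to 15.7 FPKM in in vitro iSEPs and 3.48 to 5.22 FPKM in keratinocytes. Ndufa4l2 was at 44.2, 28.9 and 1.8 FPKM in in vivo iSEPs, in the reverse of the order of mice that 9 contractile genes showed, and at 42.1, 19.9 and 3.59 FPKM in ADSCs. The 7 markers of myoepithelium, the contractile cells around glands, are mostly genes that basal keratinocytes also express, and they summed to 12553 to 24303 FPKM in in vivo iSEPs and 23277 to 25554 FPKM in keratinocytes. The other 2 of them, Oxtr and Mme, were at most at 0.036 and 0.149 FPKM in in vivo iSEPs.

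The 36 skeletal and cardiac muscle markers summed to 25.6 to 33.1 FPKM in in vivo iSEPs, 26.4 to 36.8 FPKM in in vitro iSEPs, 33.4 to 36.2 FPKM in keratinocytes and 10.9 to 12.9 FPKM in ADSCs. In in vivo iSEPs 8 of them were listed at 0 in all 3 libraries, and the gene with the highest mean was Tnnt2, a heart troponin, at 12.3, 4.65 and 13.6 FPKM. Sums over 7 endothelial markers were 9.62, 1.55 and 1.54 FPKM in in vivo iSEPs, with Pecam1 at 8.72, 0.306 and 0.669 FPKM, and 6 immune markers summed to 9.97, 22.6 and 15.1 FPKM, mostly from Cd68. Over the in vivo libraries neither sum had the order of mice seen in the contractile genes, and the fibroblast marker sums, at 3.68, 6.28 and 40.1 FPKM, had it. Across groups, in vitro iSEPs had higher fibroblast marker sums than in vivo iSEPs, at 66.3 to 185 FPKM. Their contractile sums were lower, at 1315 to 1977 FPKM. Whether any of these cell types contributed to the contractile values was not tested.

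**Figure D5:**
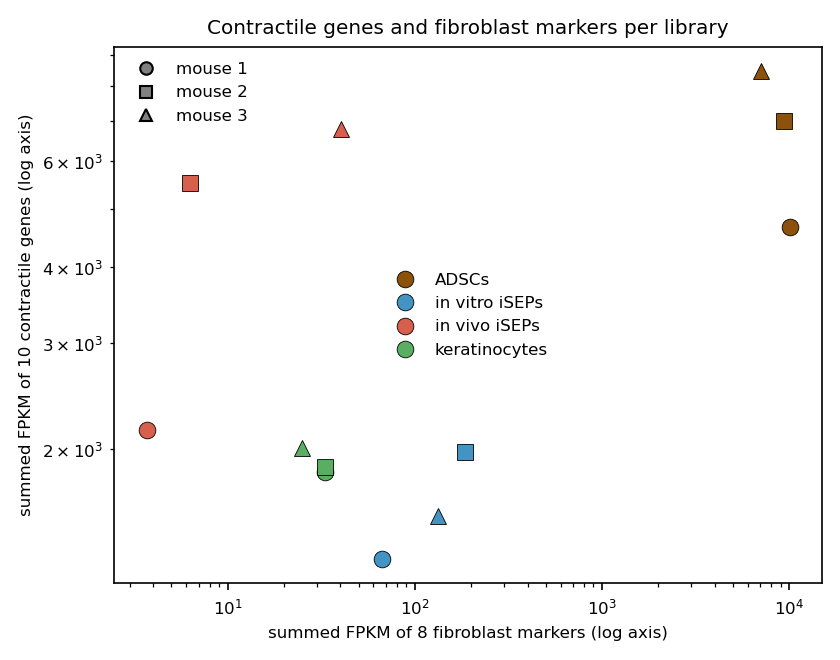
Summed FPKM of the 10 contractile genes against the summed FPKM of 8 fibroblast markers in each library, on log axes; colours mark the group and symbols the mouse. In vivo iSEPs of mice 1, 2 and 3 have contractile sums of 2151, 5519 and 6787 FPKM at fibroblast sums of 3.68, 6.28 and 40.1 FPKM. The contractile sums of mice 2 and 3 lie in the range of ADSCs and are mostly Acta2 and Tpm1. In vitro iSEPs and keratinocytes have contractile sums of at most 2006 FPKM.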

How the data were processed

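All values come from 1 table of 24537 genes, deposited by the authors in FPKM. The submitters' processing notes name STAR 2.5.1b, HOMER, FastQC 0.11.5 and the genome build mm10. Reads were counted by HOMER over RefSeq exons on the strand of the transcript, with 1 entry per gene, per the file headers. The sources used here do not say whether the library kit marks strand. Another 3 columns of values match no sample given here and were not used.

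FPKM are not counts, so log2(FPKM + 1) was analysed with limma 3.58.1 in R 4.3.3. The filter asked for 1 FPKM or more in 3 or more of 12 libraries, which 12364 genes met. A fit of 4 group means over all libraries, with a mean-dependent variance trend, gave two-sided tests for the 3 comparisons without in vivo iSEPs, with Benjamini-Hochberg adjustment over the kept genes. The fit was tested on simulated data. Library depth was read from low values, which were whole multiples of 1 read for 100% of values within a tolerance of 0.15 reads. These depths give the read numbers behind low genes.

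The mouse number pairs libraries because the labels give the same animals in each group. The main fit did not use this pairing, and a fit with the mouse as a replicate block was run as an alternative. Deviations from the group means of same-numbered libraries correlated between -0.18 and 0.21, above 0.1 in 5 of 18 pairs. Among these were all pairs of ADSCs with keratinocytes, at 0.21, 0.18 and 0.15 for mice 1, 2 and 3. The 10 genes and all lists were chosen with earlier results of these data known. Named genes are the 10, from each other list up to 2 called genes with the largest difference per comparison and the one with the highest in vivo mean, the 5 nearest profiles of Acta2, Cnn1 and Myh11, and Srf, Myocd, Mkl1, Mkl2, Krt8 and Krt18. A gene that this rule names is not reported here. Any other gene was named after its values were seen. Alternatives were another pseudocount, other filters, median scaling, quantile normalization, a replicate block, a fit without in vivo iSEPs and leaving out each library. Those for the other lists, and the ratios without in vivo mouse 3, were added after the data were seen.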

Additional observations from a re-analysis of the deposited data

How the results depend on the processing

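Over 387 recomputations of the tested results of the 10 genes, 356 kept their direction and their side of the threshold, 27 lost a call and 4 turned in sign. The sign changes concern differences that were not called: Tpm1 in keratinocytes against ADSCs was 0.09 with quantile normalization, and Tagln in in vitro iSEPs against keratinocytes ranged from -0.51 to 0.11 with 1 library left out, being 0.06 and 0.11 without in vitro replicates 1 and 3 and 0.04 without keratinocyte replicate 3. Of the 10 genes, 9 were called in in vitro iSEPs against ADSCs and 8 to 9 with 1 library left out, and 7 in keratinocytes against ADSCs, also with any 1 library left out. Between in vitro iSEPs and keratinocytes 4 were called, but 1 with no filter on low values, where more genes are tested, and 1 to 3 with 1 library left out. In that comparison 1403 genes were called in all, 2436 in the fit of 9 libraries and 524 to 1180 with 1 library left out. The number of the 10 genes with a higher mean on the log2 scale in in vivo iSEPs than in ADSCs was 1, and 0 to 3 with 1 library left out: it was 3 without ADSC replicate 3 or in vivo replicate 1 and 0 without in vivo replicate 3. The cause of these changes was not tested. The replicate block (mouse number) ended the calls of Acta1 (adjusted p = 0.0581) and Calm3 (adjusted p = 0.0707) in in vitro iSEPs against keratinocytes and no other call of the 10 genes or the genes named from the 5 pathway lists. A filter at 5 FPKM leaves out Actc1. Of 24 differences of genes named from those lists, 19 held under every alternative. Depth limits Actc1 and Myh11, whose low values rest on few reads, and 3 libraries per group limit every comparison.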

Other observations

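Fhl1, a LIM protein of muscle on the list of regulators, was named after its values were seen. It was at 109, 119 and 134 FPKM in ADSCs and 67.2, 68.9 and 65.1 FPKM in in vitro iSEPs. Its values of 103, 409 and 259 FPKM in in vivo iSEPs were less regular, with mouse 2 and not mouse 3 highest, and in keratinocytes it was at 31.9, 41.0 and 49.0 FPKM. Ppp1r14a had that order of mice too. Desmin (Des), the intermediate filament protein of muscle, was also named after its values were seen: it was at 2.94, 6.0 and 3.62 FPKM in ADSCs and at most 0.153 FPKM in every library of the other 3 groups, in vivo iSEPs included. Tgfb2, a TGF beta ligand named in the same way, was at 1.4, 5.43 and 10.8 FPKM in in vivo iSEPs and 4.37, 8.51 and 16.3 FPKM in ADSCs, in the order of mice of the contractile genes in both groups. The TGF beta list was mixed in this respect. Smad3, Smad7, Ctgf, Ltbp1 and Ltbp2 were among those with this order in in vivo iSEPs. Tgfb1, Tgfb3, Tgfbr1 and Tgfbr2 had other orders there, and Tgfbi had the reverse, at 62.3, 14.5 and 7.07 FPKM. Any part of TGF beta in the contractile values was not tested.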
